A study of Homo sapiens with 6 samples.

Results

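Lysosomes break down material delivered by endocytosis and autophagy with acid hydrolases, which work at the low pH set by a proton pump, the vacuolar ATPase (V-ATPase). Membrane proteins such as LAMP1 and LAMP2 line the organelle and transporters carry its products out. Many of these genes are targets of TFEB, TFE3 and MITF, related basic helix-loop-helix factors that bind E-box sequences near the start of lysosomal genes. Autophagy and lysosomal degradation of ferritin are known to supply iron for ferroptosis, the iron-dependent cell death that RSL3, an inhibitor of GPX4, sets off.

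RNA was sequenced from U87MG, an established human glioblastoma cell line labelled as wild type, after vehicle (control, n = 3 libraries) or RSL3 at 2 µM (n = 3 libraries). The labels give no exposure time, and the study's text describes a treatment of a day. The labels do not say whether replicates were separate cultures, so that p-values measure the spread between these libraries, which may be technical. The genes described here are a list of 49 by symbol out of the 65988 gene identifiers in the files, namely 25 hydrolases with an activator, 6 membrane and cholesterol transfer proteins, 15 proton pump subunits and accessory proteins, and 3 transcription factors. Among them 48 passed a filter on low counts (edgeR, at a minimum of 10 counts) that left 16105 genes to test. The member that did not was NEU1, a sialidase, with 2 counts in RSL3 replicate 2 and 0 in each of the other libraries. This is below the limit of 3 counts that a count of 0 allows, so no change of NEU1 was measurable.

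Total counts ranged from 27813462 to 43306335 per library. The 7 astroglial and glioblastoma markers summed to between 92844 and 94252 normalised counts in control libraries and between 73993 and 77488 in RSL3 libraries. Nearly all of this sum came from VIM and CD44, while SOX2 and S100B had at most 2 counts in any library. VIM and CD44 fell, with log2 fold changes of RSL3 over control of -0.29 and -0.39 (edgeR adjusted p = 2.2e-08 and 1.2e-08). NES, GFAP and OLIG2 went the other way, at 0.25, 0.40 and 0.13, with edgeR adjusted p of 0.203, 0.0726 and 0.347, none under 0.05. The lower sum thus reflects VIM and CD44 and not each marker. The 3 markers of myeloid cells, a cell type rich in lysosomes, summed to at most 6.99 normalised counts; of these AIF1, at 0 in each library, lies within 500 kb of NEU1, where 50.0% of protein-coding genes have no count, so that its 0 does not show absence. Endothelial markers summed to at most 11.4 and epithelial markers to at most 20.3 normalised counts. The neuronal marker SYT1 was detected, with 888 ± 23.3 (SD, n = 3) normalised counts in control and 1048 ± 17.8 (SD, n = 3) in RSL3 libraries, and the other neuronal marker, RBFOX3, had at most 10 counts. The part of these marker levels in the results was not tested.

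In RSL3-treated cells the lysosomal genes did not move in a common direction. A gene is called here at an adjusted p under 0.05 from the edgeR quasi-likelihood test with Benjamini-Hochberg adjustment over all genes tested, with log2 fold changes given as RSL3 over control. By this test 11 of the 48 members rose, 12 fell and 25 were not called. The called share was 47.9%, beside 25.6% of all genes tested (12.9% called higher and 12.7% called lower). The median log2 fold change of the 48 members was 0.013, beside -0.0044 over all genes tested. Most changes were small. Of the 23 called members, 3 changed by at least 0.3 on the log2 scale, namely the hydrolases GLA (higher) and LIPA (lower) and the factor MITF (lower), and 16 changed by less than 0.2. The 3 RSL3 libraries lay entirely on 1 side of the 3 control libraries for 28 members (58.3%), beside 38.6% of all genes tested, and these 28 included each of the 23 called. Small changes are more readily called at high counts, and the genes behind the shares of all genes were not matched to the members by count level. What part of either difference in share comes with count level was not tested, which also holds for the shares given below. In bulk RNA, fewer cells that express a gene and less of its RNA per cell cannot be told apart.

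**Figure D1:**
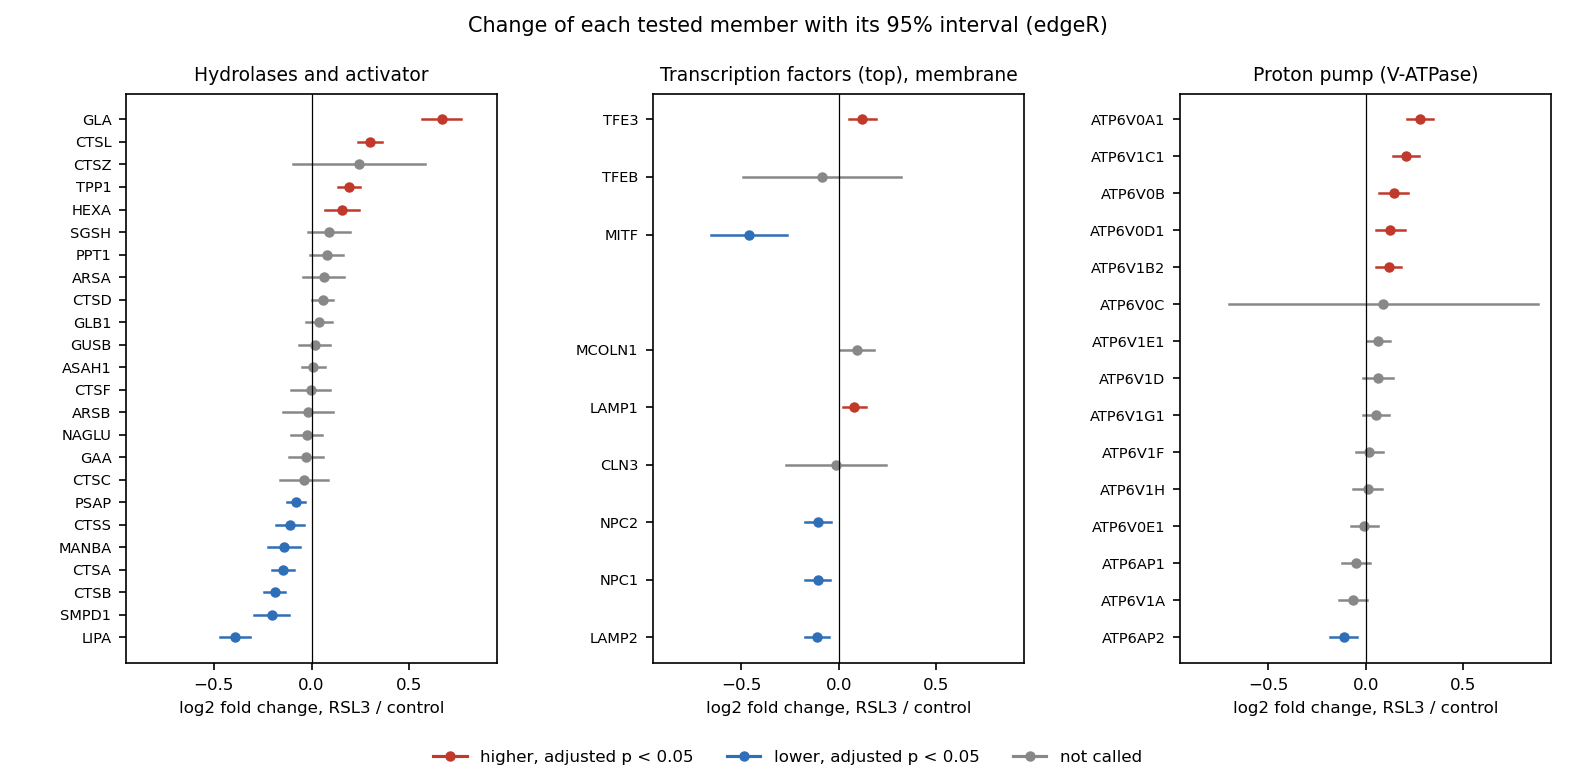
Log2 fold change of RSL3 over control (x axis) for each of the 48 tested members, in 3 panels by role, with the 95% interval from edgeR as a line; red and blue points were called higher and lower and grey points were not called. Hydrolases spread to both sides of 0, from LIPA at -0.39 to GLA at 0.67, while 11 of the 15 proton pump points lie above 0. ATP6V0C, CTSZ, TFEB and CLN3 have wide intervals.

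The transcription factors differed among themselves. MITF (chr3:69739456-69968336), best known as the melanocyte master regulator, had 420.5, 434.3 and 493 normalised counts in the control libraries and 324.3, 353.2 and 303 in the RSL3 libraries. Every RSL3 library was below every control library, and MITF fell by 0.46 on the log2 scale (standard error 0.09, edgeR adjusted p = 0.000834). TFE3 (chrX:49028726-49043410) had 4731, 4567 and 4631 normalised counts in control and 5052, 5182 and 4915 in RSL3 libraries. It rose by 0.12 on the log2 scale (standard error 0.03, edgeR adjusted p = 0.00978). That call was lost without RSL3 replicate 2, where the log2 fold change was 0.10 and the edgeR adjusted p was 0.0734, and in DESeq2 with 2 surrogate variables (DESeq2 adjusted p = 0.242). TFEB (chr6:41683978-41736259), the best studied of the factors at the lysosome, had 73.1, 82.4 and 69.3 normalised counts in control and 73.6, 63.4 and 73.9 in RSL3 libraries. The groups overlapped, and TFEB was not called, at -0.09 on the log2 scale (standard error 0.19, edgeR adjusted p = 0.801). Its 95% interval reached from -0.49 to 0.32, which still holds a fall as large as that of MITF. Per kb of annotated exon, control cells held 1104 normalised counts of TFE3, 60.5 of MITF and 11.2 of TFEB. Activation of these factors by movement into the nucleus does not show in their RNA level.

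Promoter sequence was examined because TFEB, TFE3 and MITF bind the E-box CACGTG and, at lysosomal genes, an extended form of it that starts with GT. RefSeq windows from 250 bases before to 50 bases after the gene start (GRCh38.p14) were matched for 34 of the 49 members. CACGTG, a palindrome, was in 11 of the 34 (32.4%), beside 7.43% of all 27305 promoters and 9.9% of the 11116 promoters of tested genes. GTCACGTG, searched on both strands and itself holding CACGTG, was in 9 of the 34 (26.5%), beside 2.53% of all promoters and 4.32% of those of tested genes. The E-box was in the windows of LAMP1, ATP6V0B and ATP6V0D1 among the 8 matched members that rose, of CTSA among the 7 that fell, and of CTSD, CTSF, GAA, MCOLN1, CLN3 and ATP6V1G1 among the 18 that were not called. NEU1 holds one as well, and the windows of the 3 factors held none. Other starts of the same gene were not searched, so that the lack of an E-box holds for these windows only. A match of letters is a description of these windows and not a measured binding site.

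The stretches below are shown because they place the E-box beside members of each outcome. They are from RefSeq, GRCh38.p14, read 5′ to 3′ on the gene's strand, with each CACGTG in capitals. LAMP1, a glycoprotein of the lysosomal membrane, which rose, has 6 E-boxes in its window. The 4 distal ones lie at chr13:113297020-113297129 (plus strand), starting from 192 to 142 bases before the gene start, and another, 28 bases before it, lies at chr13:113297184-113297238 (plus strand). The last starts 1 base before the gene start and runs into the transcribed part, so that it is not in the stretches printed. ATP6V0D1 (chr16:67481184-67481243, minus strand) and ATP6V0B (chr1:43974900-43974929, plus strand) also rose. CTSA (chr20:45891290-45891318, plus strand), which fell, has 2 E-boxes, starting 42 and 25 bases before the gene start. MCOLN1 (chr19:7522556-7522623, plus strand) and GAA (chr17:80101493-80101522, plus strand) were not called. GAA has 2 E-boxes, starting 76 and 31 bases before the gene start, and only the one farther from the start is printed.
LAMP1 distal: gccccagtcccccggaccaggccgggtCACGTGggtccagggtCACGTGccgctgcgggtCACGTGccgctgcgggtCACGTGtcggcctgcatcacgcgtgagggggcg
LAMP1 proximal: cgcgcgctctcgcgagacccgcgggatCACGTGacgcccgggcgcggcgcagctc
ATP6V0D1: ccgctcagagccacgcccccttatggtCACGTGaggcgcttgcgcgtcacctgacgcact
ATP6V0B: ggtCACGTGgtaccggcgcatCACGTGggc
CTSA: tgtCACGTGgcgccggagttCACGTGact
MCOLN1: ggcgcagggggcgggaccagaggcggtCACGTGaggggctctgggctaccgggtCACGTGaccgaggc
GAA: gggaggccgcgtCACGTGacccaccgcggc

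Among the hydrolases, 4 of the 24 tested rose (16.7%, beside 12.9% of all genes) and 7 fell (29.2%, beside 12.7%), with a median log2 fold change of 0.002 (between -0.0029 and 0.021 when 1 library was left out). In each library the median of these genes relative to the control mean lay between -0.0023 and 0.0096 in the control group and between -0.017 and 0.031 in the RSL3 group, and the groups overlapped. The largest rise of any member was that of GLA (chrX:101393273-101408012), which encodes alpha-galactosidase A, the enzyme that cleaves globotriaosylceramide and is lost in Fabry disease. GLA had 1176, 1142 and 1099 normalised counts in control and 1868, 1828 and 1731 in RSL3 libraries. Each RSL3 library was above each control library, and the level was 1.59-fold higher (log2 fold change 0.67, standard error 0.05, edgeR adjusted p = 1.67e-09). Of its exon bases 8.99% are shared with genes on the other strand. CTSL (chr9:87724051-87731469), the cysteine endoprotease cathepsin L, had 18141, 17691 and 17055 normalised counts in control and 22205, 21241 and 21563 in RSL3 libraries, which did not overlap. Its level was 1.23-fold higher (log2 fold change 0.30, standard error 0.03, edgeR adjusted p = 1.83e-07). TPP1, a tripeptidyl peptidase, rose with a log2 fold change of 0.19 (edgeR adjusted p = 1.96e-05), and HEXA, the alpha subunit of beta-hexosaminidase, with 0.16 (edgeR adjusted p = 0.00805).

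The hydrolases that fell include enzymes of lipid breakdown. LIPA (chr10:89213569-89414557), the lysosomal acid lipase that frees cholesterol and fatty acids from lipoprotein esters, had 4208, 4073 and 4050 normalised counts in control and 3051, 3078 and 3269 in RSL3 libraries. All RSL3 libraries were lower, at 0.762 of the control level (log2 fold change -0.39, standard error 0.04, edgeR adjusted p = 5.57e-08). Of the annotated exon bases of LIPA, 6.01% are shared with genes on the other strand, among them IFIT3 and IFIT2. These fell too, with log2 fold changes of -0.40 and -0.56. The counting ignored strand, and whether reads on the shared bases were counted for LIPA, for the other gene or for neither was not tested. SMPD1, the acid sphingomyelinase, fell by 0.20 on the log2 scale (edgeR adjusted p = 0.000933). The other lipid and acyl hydrolases were not called, PPT1 with a log2 fold change of 0.076 and acid ceramidase ASAH1 with 0.0093. PPT1 became a call without RSL3 replicate 3, with a log2 fold change of 0.12 and an edgeR adjusted p of 0.0347. It was also called with replicate number as a block and offsets for GC content (log2 fold change 0.10, edgeR adjusted p = 0.0165).

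Cathepsins went both ways. Against the rise of CTSL, cathepsin B (CTSB) had 60470, 61082 and 60949 normalised counts in control and 53314, 52196 and 54514 in RSL3 libraries. No library of one group reached into the other, and CTSB fell by 0.19 on the log2 scale (standard error 0.03, edgeR adjusted p = 7.87e-06). CTSA, the carboxypeptidase that protects beta-galactosidase and NEU1 in a complex, fell by 0.15 (edgeR adjusted p = 0.000282), and CTSS fell by 0.11 (edgeR adjusted p = 0.0236). CTSA shares 21.51% of its exon bases with genes on the other strand, among them PLTP, with 17608 normalised counts in control cells. The call of CTSS was lost in 4 of the 6 fits that left out 1 library, without control replicate 1 or 3 or RSL3 replicate 1 or 2, where the log2 fold change lay between -0.11 and -0.075 and the edgeR adjusted p was between 0.0517 and 0.181. The aspartic protease CTSD, whose level per exon length was the third highest of all members, was not called (log2 fold change 0.058, edgeR adjusted p = 0.106), although it was without control replicate 1 (log2 fold change 0.073, edgeR adjusted p = 0.047) and with replicate number as a block (edgeR adjusted p = 0.0177). Of its exon bases 48.04% are shared with other genes. CTSC, CTSF and CTSZ were not called either, and CTSF had the largest p of the hydrolases, with 1848 ± 86.2 (SD, n = 3) normalised counts in control and 1842 ± 112 (SD, n = 3) in RSL3 libraries.

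PSAP, the precursor of the saposins that present sphingolipids to their hydrolases, had the highest level per exon length of all members, at 47865 normalised counts per kb in control and 45294 in RSL3 cells. It fell by 0.080 on the log2 scale (standard error 0.02, edgeR adjusted p = 0.0112), a call that was lost without RSL3 replicate 1 or 2, at log2 fold changes of -0.080 and -0.076 and edgeR adjusted p of 0.0562 and 0.085. Of the 7 glycosidases tested, GLA and HEXA rose and MANBA, the beta-mannosidase, fell by 0.14 (edgeR adjusted p = 0.0112; without RSL3 replicate 3, -0.12 and edgeR adjusted p = 0.061). GLB1, GAA, GUSB and NAGLU were not called, at log2 fold changes between -0.030 and 0.040. The 3 sulfatases SGSH, ARSA and ARSB were not called, at 0.090, 0.063 and -0.019. The calls of HEXA, CTSS, MANBA and PSAP were lost in DESeq2 with 2 surrogate variables, the alternative that made the fewest calls over all genes, and among the 12 tested hydrolases whose exons are free of overlap 1 rose and 4 fell, with a median of -0.025.

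**Figure D2:**
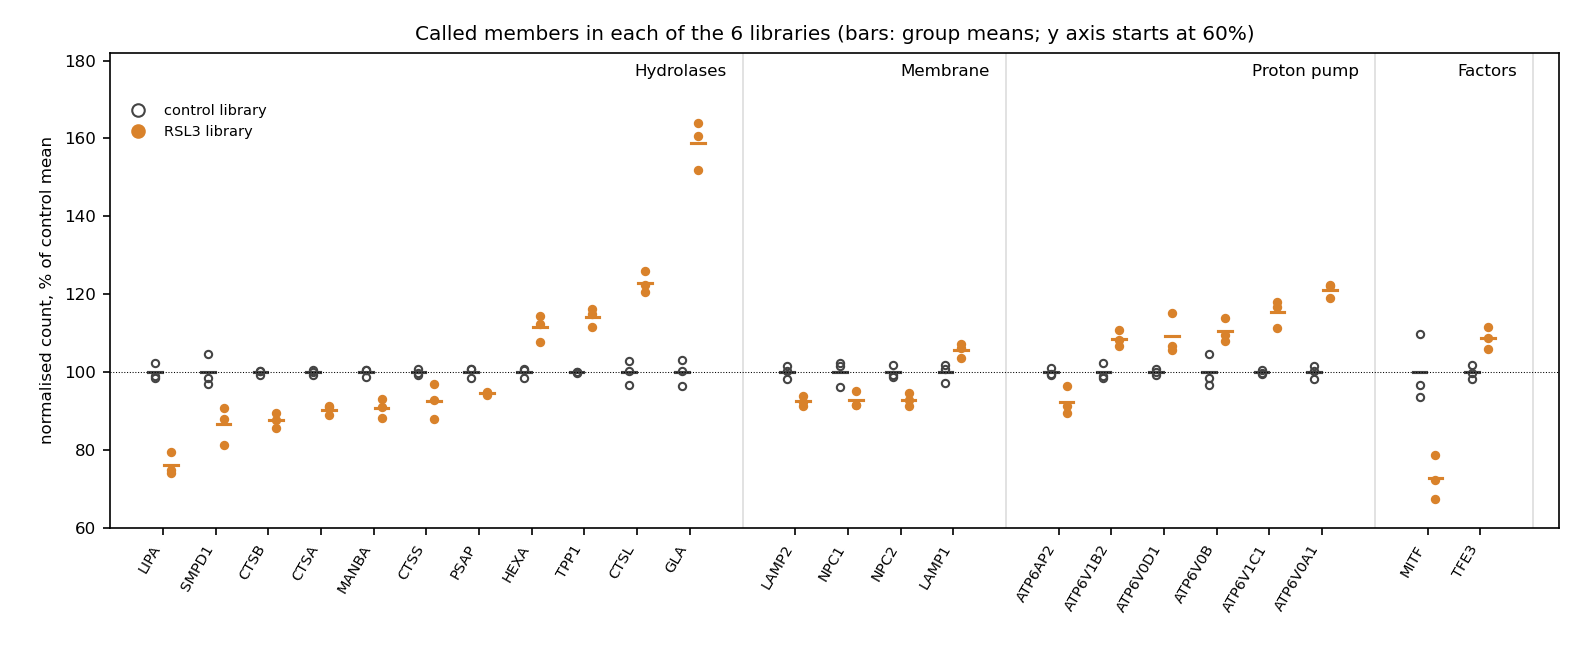
Normalised count as a percentage of the control mean (y axis, starting at 60%) for each called member in the 3 control libraries (open circles) and the 3 RSL3 libraries (filled circles), with bars at the group means, ordered within each role by log2 fold change. GLA stands highest and MITF and LIPA lowest, and in most members the RSL3 circles lie within 20% of the control mean.

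Of the 6 membrane and cholesterol transfer proteins, 1 rose (16.7%, beside 12.9% of all genes) and 3 fell (50.0%, beside 12.7%), with a median log2 fold change of -0.059. This median was -0.036 without control replicate 1. The median of the 6 genes in each library was between -0.0098 and 0.013 in the control group and between -0.054 and -0.043 in the RSL3 group, which did not overlap. LAMP1 and LAMP2, the most abundant lysosomal membrane glycoproteins and close relatives in structure, moved in opposite directions. LAMP1 (chr13:113297239-113323672), with the highest level per exon length of these 6 genes, had 28509, 28818 and 27462 normalised counts in control and 30008, 30339 and 29276 in RSL3 libraries. The lowest RSL3 library was above the highest control library, and LAMP1 rose by 0.080 on the log2 scale (standard error 0.03, edgeR adjusted p = 0.0394). LAMP2 (chrX:120426148-120469365), whose A isoform is the receptor of chaperone-mediated autophagy, had 11000, 11375 and 11248 normalised counts in control and 10536, 10361 and 10223 in RSL3 libraries. All RSL3 libraries were lower, and LAMP2 fell by 0.11 on the log2 scale (standard error 0.03, edgeR adjusted p = 0.00682). The counts of a gene sum its isoforms, so that those of LAMP2 were not separated.

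NPC1 and NPC2, which hand cholesterol from the lysosomal lumen to the membrane, both fell. NPC1 had 23615, 25083 and 24888 normalised counts in control and 22455, 22448 and 23371 in RSL3 libraries, a change of -0.11 on the log2 scale (edgeR adjusted p = 0.0101). NPC2 had 6545, 6508 and 6718 in control and 6121, 6017 and 6240 in RSL3 libraries, also a log2 fold change of -0.11 (edgeR adjusted p = 0.0154). In both genes the groups did not overlap, and in NPC1 the gap between them was smaller than the range within either. Leaving out 1 library ended the call of NPC1 without control replicate 2 or RSL3 replicate 1 or 2 (log2 fold change between -0.098 and -0.089, edgeR adjusted p from 0.0575 to 0.0731), that of NPC2 without control replicate 3 or RSL3 replicate 1 or 2 (between -0.10 and -0.088, edgeR adjusted p from 0.0541 to 0.0927), and that of LAMP1 without control replicate 3 or RSL3 replicate 1 or 2 (between 0.063 and 0.077, edgeR adjusted p from 0.123 to 0.189). LAMP2 kept its call in those fits and lost it with offsets for GC content (log2 fold change -0.064, edgeR adjusted p = 0.157), as CTSS and ATP6AP2 did (edgeR adjusted p = 0.108 and 0.103). In DESeq2 with 2 surrogate variables LAMP2 and NPC2 were not called. MCOLN1, the TRPML1 channel that releases calcium from the lysosome, had 1644 ± 31.3 (SD, n = 3) normalised counts in control and 1755 ± 29.7 (SD, n = 3) in RSL3 libraries and was not called (log2 fold change 0.094, edgeR adjusted p = 0.111). CLN3, the Batten disease protein, had the largest p of the group, at 174 ± 9.79 and 173 ± 3.14 (SD, n = 3 each), and 31.1% of its annotated exon bases are shared with other genes.

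The proton pump genes had more calls upward than downward. Of the 15 tested, 5 rose (33.3%, beside 12.9% of all genes) and 1 fell (6.67%, beside 12.7%), and the median log2 fold change was 0.063, which was 0.031 without control replicate 3. In each library the median of the 15 was between -0.022 and 0.011 in the control group and between 0.036 and 0.069 in the RSL3 group. The summed normalised counts of the 15 genes were 79702, 79517 and 78064 in control and 84283, 82920 and 81854 in RSL3 libraries, and these did not overlap. The sum weighs the most counted genes most and was not tested.

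The V-ATPase consists of V0, the proton channel in the membrane, and V1, the part outside that splits ATP. In V0, 3 of 5 members rose, beside 12.9% of all genes, none fell, and the median log2 fold change was 0.13. ATP6V0A1 (chr17:42458844-42522582), an isoform of the a subunit that carries the proton path, had 3863, 3910 and 3786 normalised counts in control and 4589, 4711 and 4704 in RSL3 libraries. This was the largest rise among the 15 listed pump members, with the groups well apart, at 1.21-fold (log2 fold change 0.28, standard error 0.03, edgeR adjusted p = 1.56e-06). ATP6V0B, a proteolipid of the rotating ring, had 6064, 5606 and 5700 normalised counts in control and 6591, 6350 and 6255 in RSL3 libraries. It rose by 0.14 on the log2 scale (standard error 0.04, edgeR adjusted p = 0.00422). ATP6V0D1, which joins the ring to the central stalk, rose with 0.13 (edgeR adjusted p = 0.0108), but not without RSL3 replicate 1, its highest library (log2 fold change 0.087, edgeR adjusted p = 0.11). ATP6V0E1 had the largest p of the pump, at 5213 ± 83.5 (SD, n = 3) in control and 5190 ± 188 (SD, n = 3) in RSL3 libraries. ATP6V0C, the main ring proteolipid, was counted at 16.4 ± 3.37 (SD, n = 3) and 17.2 ± 2.4 (SD, n = 3), and 76.3% of its annotated exon bases are shared with other genes on its own strand, so that its counts cannot be read as its RNA level and no change was measurable.

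In V1, 2 of 8 members rose, beside 12.9% of all genes, and none fell, beside 12.7%. The share called in either direction was near the 25.6% of all genes, and the median log2 fold change was 0.058. ATP6V1C1, the stator subunit whose contacts hold V1 on V0, had 8127, 8142 and 8202 normalised counts in control and 9517, 9632 and 9080 in RSL3 libraries. All RSL3 libraries were higher, at 1.15-fold (log2 fold change 0.21, standard error 0.03, edgeR adjusted p = 3.29e-05). ATP6V1B2, a nucleotide-binding subunit, had 7393, 7642 and 7349 in control and 8262, 8070 and 7954 in RSL3 libraries and rose with a log2 fold change of 0.12 (edgeR adjusted p = 0.00665). Its catalytic partner ATP6V1A did not rise, with a log2 fold change of -0.065 (edgeR adjusted p = 0.2). ATP6V1D, ATP6V1E1, ATP6V1F, ATP6V1G1 and ATP6V1H were not called, at log2 fold changes between 0.010 and 0.065, and ATP6V1F had the highest level per exon length in the pump, at 9337 normalised counts per kb in control and 9453 in RSL3 cells. ATP6V1F shares 20.6% of its exon bases with KCP on the other strand. The control means were 7115 normalised counts for ATP6V1F and 8827 for KCP. Of the accessory proteins, ATP6AP2, known as the prorenin receptor, fell by 0.11 on the log2 scale (edgeR adjusted p = 0.0156), and ATP6AP1 was not called at -0.049. The call of ATP6AP2 was lost without control replicate 2 or RSL3 replicate 1 or 3 (log2 fold change between -0.10 and -0.091, edgeR adjusted p from 0.0549 to 0.108). DESeq2 with 2 surrogate variables left ATP6V0A1 and ATP6V1C1 as the called members of the pump, while the fit with offsets for GC content and replicate number as a block called 8 higher. Among the 8 pump genes whose exons are free of overlap, 2 rose and 1 fell, with a median of 0.032.

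**Figure D3:**
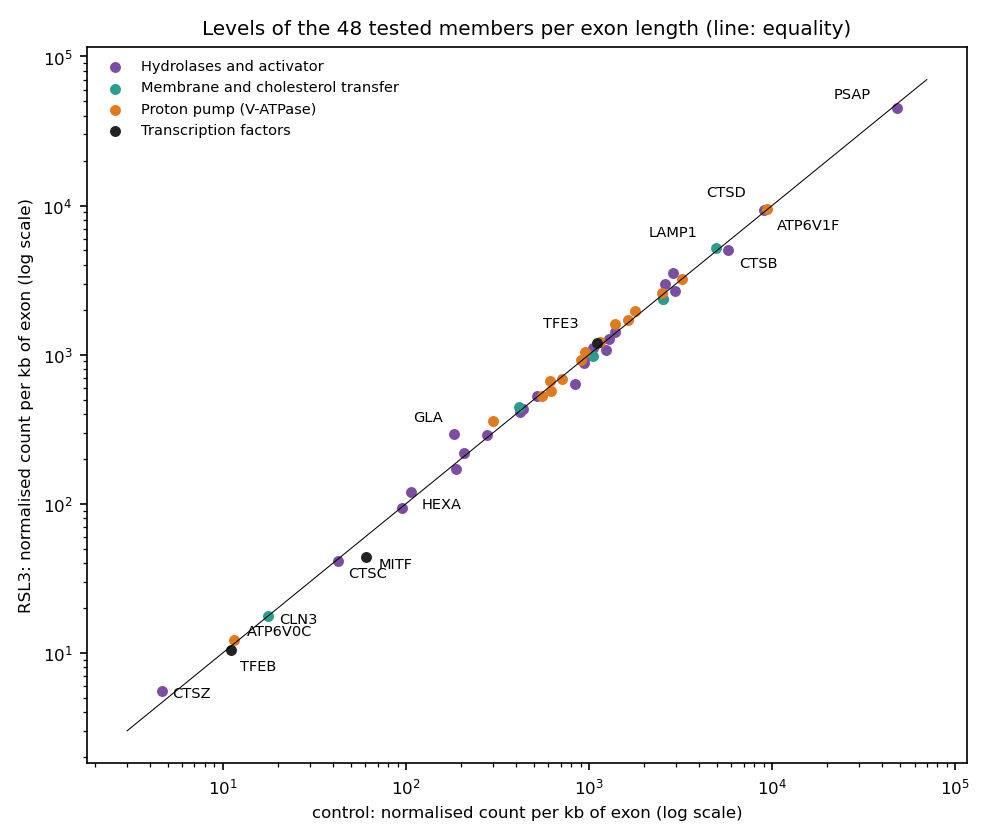
Mean normalised count per kb of annotated exon in control (x axis) and RSL3 cells (y axis), both on log scales, for the 48 tested members coloured by role, with a line of equality. Levels span from 4.65 per kb (CTSZ) to 47865 per kb (PSAP) in control cells, and most points lie on or close to the line, with GLA above it and MITF below it.

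Of the 25 members not called, 24 had a log2 fold change of less than 0.1 in either direction. The exception was CTSZ, at 0.24 (standard error 0.16, edgeR adjusted p = 0.308), which had 90.1 ± 5.32 (SD, n = 3) normalised counts in control and 107 ± 3.92 (SD, n = 3) in RSL3 libraries and shares 31.7% of its exon bases with genes on the other strand. A small estimate is not an absence of change where the 95% interval is wide. That interval was -0.70 to 0.88 for ATP6V0C, -0.49 to 0.32 for TFEB and -0.27 to 0.24 for CLN3. In 5 of the 25, namely CTSD, CTSZ, MCOLN1, ATP6V1E1 and ATP6V1A, the groups did not overlap, and 3 had a p under 0.05 before adjustment. Across the list, 24 members share some exon bases with another annotated gene, and 11 of the 23 called do. Among those called, the largest shares were 21.51% for CTSA, 16.73% for HEXA, 13.9% for TPP1 and 11.3% for MANBA. Whether reads on shared bases were counted for the member, for the other gene or for neither was not tested. This limits how far the counts of those members stand for their RNA.

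Other genes of the lysosome were taken from 6 further lists. Of the other hydrolases and activators, 9 of 26 tested fell (beside 12.7% of all genes) and 1 rose (beside 12.9%), with a median log2 fold change of -0.042, which lay between -0.075 (without RSL3 replicate 3) and -0.0094 (without control replicate 3) when 1 library was left out. GM2A, the activator that lifts GM2 ganglioside to hexosaminidase, fell by 0.47 on the log2 scale (edgeR adjusted p = 2.03e-08), the collagen-cleaving cathepsin K (CTSK) by 0.31 (edgeR adjusted p = 1.96e-06) and the acid endonuclease DNASE2 by 0.25 (edgeR adjusted p = 5.62e-06). Among other membrane proteins, 6 of 23 rose and 7 fell, beside 12.9% and 12.7% of all genes. Their median of 0.028 turned to -0.027 without RSL3 replicate 1 and to -0.022 in DESeq2 with 2 surrogate variables, so that it has no settled sign. SCARB2, which carries glucocerebrosidase to the lysosome, fell by 0.33 (edgeR adjusted p = 1.31e-07), the membrane protein TMEM192 rose with 0.35 (edgeR adjusted p = 3.22e-07), and the channel TPCN1 fell by 0.25 (edgeR adjusted p = 1.07e-05).

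Other pump subunits and assembly factors had 3 of 16 higher and 4 lower, beside 12.9% and 12.7% of all genes, with a median of -0.056. Here isoforms of the same subunit diverged. Of the a subunit, ATP6V0A2 rose with a log2 fold change of 0.33 (edgeR adjusted p = 8.54e-06), as ATP6V0A1 had, and TCIRG1, the a3 isoform of osteoclasts, fell by 0.31 (edgeR adjusted p = 2.42e-06). Of these 3 genes TCIRG1 had the highest level per exon length, at 1258 normalised counts per kb in control cells against 97.6 for ATP6V0A2 and 298 for ATP6V0A1. Without division by length the control means were nearer, at 5783 normalised counts for TCIRG1, 1680 for ATP6V0A2 and 3853 for ATP6V0A1. Of the d subunit, ATP6V0D2 had 5527, 6055 and 5488 normalised counts in control and 7761, 7847 and 6963 in RSL3 libraries. It rose with a log2 fold change of 0.40 (edgeR adjusted p = 4.27e-07), beside 0.13 for ATP6V0D1. The differences between isoforms were not tested.

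Receptors that sort hydrolases to the lysosome changed as follows. IGF2R, the large mannose 6-phosphate receptor, had 39842, 43154 and 42509 normalised counts in control and 57559, 56838 and 55763 in RSL3 libraries. The RSL3 libraries were all higher, at 1.36-fold (log2 fold change 0.44, standard error 0.03, edgeR adjusted p = 6.27e-10). The smaller receptor M6PR rose with 0.17 (edgeR adjusted p = 0.000299), and 30.88% of its exon bases are shared with a gene on the other strand. GNPTAB, which makes the mannose 6-phosphate tag that both receptors read, had 3436, 3496 and 3533 normalised counts in control and 2360, 2311 and 2479 in RSL3 libraries. It fell by 0.55 on the log2 scale (standard error 0.04, edgeR adjusted p = 7.14e-10). In all, 3 of the 15 sorting genes tested rose and 2 fell, beside 12.9% and 12.7% of all genes. Their median of -0.013 was 0.0016 without control replicate 3 and 0.0013 without RSL3 replicate 3, so that it has no settled sign either.

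Of 19 genes of nutrient sensing at the lysosome, 2 rose and 2 fell, beside 12.9% and 12.7% of all genes. Their median of 0.019 turned to -0.0081 without RSL3 replicate 2. TBC1D7 of the TSC complex rose with a log2 fold change of 0.27 (edgeR adjusted p = 9.99e-05) and the GTPase RRAGD with 0.15 (edgeR adjusted p = 0.00393), while the folliculin partner FNIP2 fell by 0.17 (edgeR adjusted p = 0.00217). These 3 calls were lost in DESeq2 with 2 surrogate variables (DESeq2 adjusted p = 0.0817, 0.0762 and 0.172). Of the 6 cathepsin inhibitors and galectins tested, 1 rose and 2 fell, beside 12.9% and 12.7% of all genes, with a median of -0.10 that was -0.059 without control replicate 1. LGALS3, a galectin that marks damaged lysosomes, fell by 0.49 on the log2 scale (edgeR adjusted p = 1.72e-10), LGALS1 fell by 0.13 (edgeR adjusted p = 0.00112), and LGALS8, another damage sensor, rose with 0.25 (edgeR adjusted p = 0.000119). Of the exon bases of LGALS8, 28.75% are shared with genes on the other strand. The calls of LGALS1 and LGALS8 were lost in DESeq2 with 2 surrogate variables (DESeq2 adjusted p = 0.23 and 0.173).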

How the data were processed

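Poly(A) RNA of U87MG cells was sequenced in read pairs (3 control and 3 RSL3 libraries, 27813462 to 43306335 counts). Reads were trimmed by the authors (Trimmomatic 0.36, Fastp) and placed on GRCh38.p4 with HISAT2, and those on the exons of each gene were summed with HTSeq-count 0.6.1p1, ignoring strand. The values the authors deposited are raw counts, without normalization; the annotation release is not given in the sources used here. For their own comparison the authors used DESeq2 with surrogate variables, whose number is not given in the sources used here.

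The tests were run with edgeR 4.0.16 under R 4.3.3 (TMM, factors 0.9951 to 1.008; filterByExpr, minimum count 10; quasi-likelihood F test, two-sided, no covariates; Benjamini-Hochberg over the 16105 genes tested, threshold 0.05). Normalised counts are counts scaled to the mean adjusted library size. Exon lengths, shared exon bases, GC content and gene coordinates are from GENCODE v44 on hg38, which can differ from the authors' annotation, and promoter windows are from RefSeq. Levels per kb divide by all annotated exon bases of a gene, whichever isoforms are expressed, so that comparisons of level between genes are approximate. No test was made over a list. The scripts were tested on simulated data, where recovery of changed genes was limited at low counts.

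The members and lists were chosen with earlier results of these data known. Named with values were the called members, the factors, in each role the genes with the highest level per exon length and the largest p, and the 3 genes with the smallest p of each further list; others were named after their values were seen. The symbols PQLC2 and TLDC1 of the further lists matched no gene. Alternatives were other library scaling and filters, DESeq2 1.42.0 with 0, 1 or 2 surrogate variables (sva 3.50.0), replicate number as a block, GC offsets, a threshold of 0.01, members that share no exon base, and each library left out.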

Additional observations from a re-analysis of the deposited data

How the results depend on the processing

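The 23 called members kept their direction in the 17 alternatives run for each gene. Of them 10 kept the call in each alternative, and 14 were called in each of the 6 fits without 1 library. No call of a member changed with DESeq2's size factors, total counts, the other filters, or DESeq2 with 0 or 1 surrogate variables, where ATP6V0C had no adjusted p. DESeq2 with 2 surrogate variables ended 11 calls of members, the threshold of 0.01 ended 8, GC offsets 3 and the block with GC offsets 2. The cause was not tested, other than for the threshold, which is stricter by construction. Medians below are log2 fold changes.

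With 2 surrogate variables DESeq2 called 658 genes higher and 670 lower, with a median of 0.0004 over all genes. It called 4 hydrolases, 1 membrane gene and 0 pump genes lower and 2 pump genes and 0 factors higher, with medians of -0.0431 (membrane), 0.0839 (pump) and 0.021 (factors). Of the further lists, it called 0 other hydrolases higher, 0 nutrient sensing genes in either direction, 0 inhibitors and galectins higher and 1 lower, 1 sorting gene lower, 2 other pump genes lower and 4 other membrane genes lower, with medians of -0.1204 (other hydrolases) and -0.0217 (other membrane).

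With 1 surrogate variable the median of all genes was -0.0001 and 1 nutrient sensing gene was lower; it was -0.0006 with at least 10 counts in every library and -0.0127 with total counts. Other hydrolases called higher numbered 2 with that filter, with DESeq2's size factors and with the block. At a threshold of 0.01, 1348 genes were higher and 1343 lower, with 4 hydrolases, 1 membrane gene, 0 pump genes and 1 nutrient sensing gene lower and 0 membrane genes higher.

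GC offsets gave medians of 0.0104 (all genes), -0.0345 (membrane), 0.0819 (pump), 0.0575 (other membrane), -0.026 (other pump) and -0.0664 (inhibitors and galectins), with 0 pump genes lower and 5 nutrient sensing genes higher. Deviations of libraries with the same replicate number correlated weakly, at 0.025, 0.027 and 0.072, and each library correlated best with its own number. The labels do not say whether the numbers mark paired libraries, and these values do not settle it. With the replicate number as a block 2350 genes were higher and 2283 lower, with 5 sorting genes and 4 nutrient sensing genes higher. The replicate block with GC offsets gave medians of 0.0106 (all genes), -0.0331 (membrane), 0.0818 (pump), 0.0574 (other membrane), -0.0242 (other pump) and -0.0613 (inhibitors and galectins), with 8 pump, 3 other hydrolase, 5 sorting and 6 nutrient sensing genes higher. Among members that share no exon base, 1 hydrolase, 1 membrane gene, 2 pump genes and 1 factor were higher. Lower were 4 hydrolases, 1 membrane gene, 1 pump gene and 1 factor. The medians were -0.0245 (hydrolases), -0.0157 (membrane), 0.0316 (pump) and -0.1698 (factors), from fewer genes.

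Without 1 library, medians ranged from -0.0055 to 0.0005 (all genes), -0.0029 to 0.0207 (hydrolases), -0.0624 to -0.0362 (membrane), 0.0312 to 0.0732 (pump), -0.0265 to 0.0556 (other membrane) and -0.1142 to -0.0585 (inhibitors and galectins). Lower calls ranged from 1 to 3 (membrane), 0 to 1 (pump) and 1 to 2 (nutrient sensing), and higher calls from 0 to 1 (membrane and factors), 1 to 2 (other hydrolases) and 2 to 4 (nutrient sensing).

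Of the members that were not called, 11 changed sign in an alternative. DESeq2 with 2 surrogate variables gave -0.0072 for ARSA, 0.029 for CLN3 and 0.021 for TFEB. GC offsets gave 0.0007 for CTSC, 0.0111 for ARSB and 0.02 for ATP6V0E1, and with the block 0.0052, 0.0108 and 0.02. Without 1 library the ranges were -0.054 to 0.0309 for CTSF, -0.0602 to 0.0049 for NAGLU, -0.0521 to 0.0188 for ARSB, -0.0359 to 0.0382 for CLN3, -0.0506 to 0.2226 for ATP6V0C, -0.0362 to 0.0142 for ATP6V0E1, -0.0103 to 0.0413 for ATP6V1F and -0.0189 to 0.0316 for ATP6V1H.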

Other observations

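NEU1 lies at chr6:31857659-31862905 and had 2 counts over the 6 libraries. Of the 18 protein-coding genes within 100 kb of it, 9 (50.0%) had no count in any library, and within 500 kb 34 of 68 (50.0%) had none. Within 1000 kb there were 48 of 98, beside 3064 of all 19578 protein-coding genes (15.7%). The cause was not tested.

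The count files hold 41 pseudogenes named after 6 of the members, of which 21 had 0 counts in all libraries. The highest total among them was 1146 counts over the 6 libraries, beside 12244 for its parent gene GUSB. How reads were divided between parent genes and pseudogenes was not tested.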
